A study of Neotoma stephensi and Rattus norvegicus with 6 samples.

Results

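The genes of the epidermal growth factor (EGF) receptor system described here are 10 genes taken by their symbol: the receptors Egfr and Erbb2, the ligands Areg, Ereg, Hbegf, Tgfa, Btc and Epgn, and the receptor inhibitors Errfi1 and Lrig1. Of these, 9 were among the 15481 genes in the count tables, and 8 of the 12603 genes that reached 1 CPM (reads scaled to a common library size) in 3 or more animals. Epgn was not in the files analysed here, and Areg fell below this filter. The study compared polyA RNA of the fornix ventricularis, the nonglandular upper part of the stomach, between 3 Stephens' woodrats (Neotoma stephensi), which were caught in the wild and fed juniper until dissection the next day, and 3 lab rats (Rattus norvegicus, strain Sprague Dawley), which were bought and kept on rat chow. All animals were female. The labels call all of them virgin, while the methods state this for the lab rats only, and neither gives an age. Species, diet and origin went together in this design and cannot be told apart.

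EGFR is a receptor tyrosine kinase of the ErbB family. Its ligands are made as membrane-anchored precursors that ADAM metalloproteases release, and a bound receptor pairs with a second EGFR or with ERBB2, a partner with no known ligand of its own, to start RAS-ERK and PI3K signalling. In stratified squamous epithelium, such as that lining the foregut of both species, this signalling is known for sustaining the growth of basal keratinocytes and for wound repair. The inhibitors ERRFI1 and LRIG1 bind ErbB receptors and limit their activity or their amount.

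The libraries held between 5439642 and 7932637 counted reads, so that 3 reads corresponded to between 0.355 and 0.586 CPM. The CPM given below were normalized with trimmed mean of M-values (TMM) factors. Tissue markers differed between the libraries. The summed level of 12 epithelial genes, all of them present in both species, was 1341, 3351 and 8211 CPM in woodrats 1, 2 and 3 and between 4942 and 6122 CPM in the lab rats. The summed level of 10 smooth muscle genes, likewise all present, was 128650, 62490 and 42043 CPM in woodrats 1, 2 and 3 and between 11403 and 20588 CPM in the lab rats. Woodrat 1 thus had the lowest epithelial and the highest smooth muscle level of the 6 animals. Leukocyte markers, of which 8 of 9 were in the files, summed to between 16 and 43.5 CPM in woodrats and between 203 and 310 CPM in lab rats. Markers of glandular stomach, of which 7 of 11 were in the files, summed to at most 11.5 CPM in any animal, and 6 of these 7 were at 0 in every lab rat. In RNA of such bulk tissue, fewer cells of a type and less RNA per cell cannot be told apart. For muscle, the study also measured tissue sections, with a sample size it called limited. Muscularis propria and total muscle took a greater share of the foregut wall in woodrats, and muscularis mucosae in lab rats.

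None of the 8 tested members was differentially abundant at a false discovery rate (FDR) below 0.01 (edgeR quasi-likelihood test), the threshold of the study, against 20% of all tested genes. Egfr and the ligand betacellulin were about 2 and 4 times more abundant in woodrats, and heparin-binding EGF about 3 times more abundant in lab rats, but each of these differences stopped at an FDR near 0.02. In 4 of the 8 members the unadjusted p was under 0.05, as in 49.7% of all tested genes, and in 4 the animals of the 2 species did not overlap, compared with 56.2% of all tested genes that did not overlap. At an FDR below 0.05, 3 members passed (Egfr, Btc and Hbegf), where 39.9% of all tested genes did. The same 3 members passed an FDR of 0.01 in DESeq2, where 31.1% of all tested genes did. The median log2 fold change of the 8 members (woodrat minus lab rat) was 0.58, and that of all tested genes 0.03. The median of the members depended on single animals. Without woodrat 3 it was 0.03, against -0.02 for all tested genes, and without lab rat 1 it was 0.99, against 0.05.

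Egfr (ENSMUSG00000020122.15) had 190, 246 and 412 reads in woodrats 1, 2 and 3, or 37.1, 34.1 and 48.8 CPM. In lab rats 1, 2 and 3 it had 187, 129 and 80 reads, or 23.2, 21.3 and 15.4 CPM. Every woodrat was above every lab rat, and the spread within each species was small, with the highest animal 1.43 times the lowest among woodrats and 1.51 times among lab rats. The log2 fold change was 1.00 (FDR = 0.0201, standard error 0.27, edgeR quasi-likelihood test), a 2.00-fold higher abundance in woodrats. It ranged from 0.83 to 1.12 when each animal was left out in turn, with an FDR between 0.0318 and 0.0569. The summed smooth muscle markers, and 9 of the 10 genes (all but Smtn, which overlapped), were also higher in every woodrat. The sum of 11 basal keratinocyte markers overlapped between the species. It was 5364, 9750 and 11514 CPM in woodrats 1, 2 and 3 and between 5059 and 7427 CPM in lab rats. The part of either set of markers in the differences of Egfr, Btc and Lrig1 was not tested.

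Erbb2 (ENSMUSG00000062312.5) had 207, 588 and 908 reads in woodrats 1, 2 and 3, or 40.4, 81.6 and 108 CPM. In lab rats 1, 2 and 3 it had 916, 573 and 502 reads, or 114, 94.8 and 96.7 CPM. The species overlapped, because woodrat 3 lay within the range of the lab rats and woodrat 1 far below it. Woodrat 1 was also the animal with the lowest epithelial markers, and whether this plays a part was not tested. The log2 fold change was -0.41 (FDR = 0.371, standard error 0.34).

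**Figure D1:**
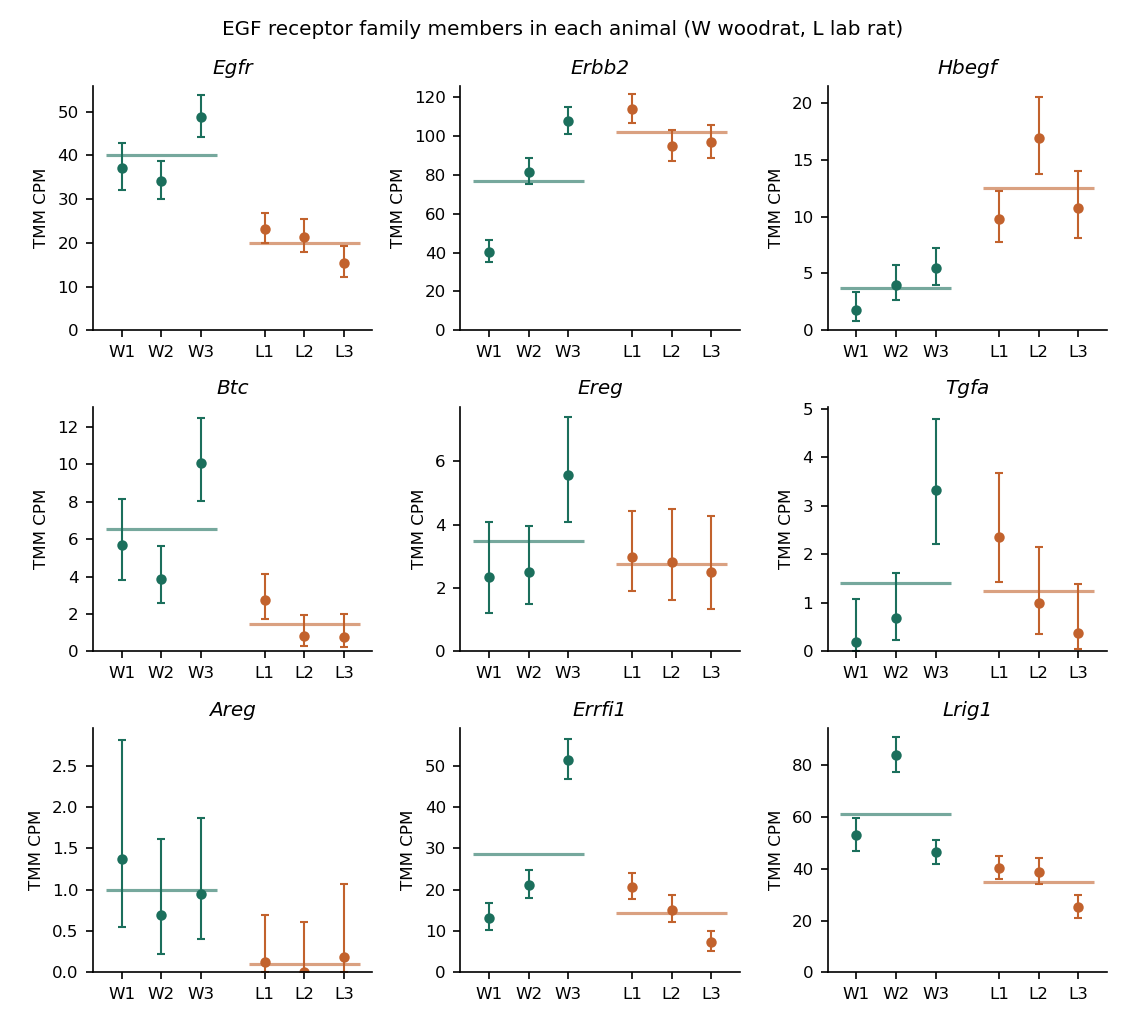
TMM-normalized CPM of the 9 members in the files (y axis, from 0) in woodrats 1 to 3 (W, green) and lab rats 1 to 3 (L, orange). Points are animals, bars exact 95% Poisson intervals that cover counting error only, and horizontal lines the mean of 3 animals. Egfr, Btc, Lrig1 and Areg were higher in every woodrat and Hbegf in every lab rat, while Erbb2, Ereg, Tgfa and Errfi1 overlapped.

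Because reads of both receptors come from the same library, their ratio does not depend on how libraries were scaled. The number of Egfr reads per Erbb2 read was 0.918, 0.418 and 0.454 in woodrats 1, 2 and 3. It was 0.204, 0.225 and 0.159 in lab rats 1, 2 and 3. The lowest woodrat was thus above the highest lab rat. The mean log2 ratio was -0.84 ± 0.62 (SD, n = 3) in woodrats, against -2.36 ± 0.26 (SD, n = 3) in lab rats. Their difference of 1.52 stayed between 1.17 and 1.73 when each animal was left out in turn. The highest ratio was that of woodrat 1, which also had the lowest Erbb2 level, the lowest epithelial and the highest smooth muscle level. The part of tissue composition in the ratio was not tested. Reads of both inhibitors per Erbb2 read also separated the species, as given below. The ratio of Egfr to Erbb2 was 1 of 7 that were computed after the counts had been seen, and it was not tested. How often other pairs of genes separate the species was not computed.

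Among the ligands, Hbegf (ENSMUSG00000024486.5), which encodes heparin-binding EGF, a ligand of EGFR and ERBB4 known for its part in keratinocyte migration, had 9, 29 and 46 reads in woodrats 1, 2 and 3. This was 1.76, 4.03 and 5.45 CPM, against 9.80, 16.9 and 10.8 CPM in lab rats 1, 2 and 3, from 79, 102 and 56 reads. Every lab rat was above every woodrat. The log2 fold change was -1.70 (FDR = 0.0177, standard error 0.45, edgeR quasi-likelihood test), a 3.26-fold lower abundance in woodrats, and it lay between -2.07 and -1.39 when each animal was left out. The summed levels of the leukocyte markers and of the suprabasal keratinocyte markers (13 of 14 in the files, 29524 to 77875 CPM in woodrats and 89510 to 119890 CPM in lab rats) were likewise higher in every lab rat. Not all single markers followed their sum, since among the 13 suprabasal genes 5 were higher in every lab rat and 2 (Krt4 and Calm4) in every woodrat, and among the 8 leukocyte genes Cd68 overlapped and Cd79a was higher in every woodrat. The part of these markers in the Hbegf difference was not tested.

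Btc (ENSMUSG00000082361.5) encodes betacellulin, which also binds both EGFR and ERBB4. It had 29, 28 and 85 reads in woodrats 1, 2 and 3, or 5.66, 3.89 and 10.1 CPM. In lab rats 1, 2 and 3 it had 22, 5 and 4 reads, or 2.73, 0.827 and 0.770 CPM. Its direction was opposite to that of Hbegf, with every woodrat above every lab rat. The log2 fold change was 2.11 (FDR = 0.0230, standard error 0.60), and it rested on few lab rat reads. Over the 6 fits that left out 1 animal it ranged from 1.64 without woodrat 3 to 3.01 without lab rat 1. The FDR in these fits lay between 0.0146 and 0.0778.

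Ereg (ENSMUSG00000029377.5), which encodes epiregulin, was found at similar levels, with 2.34, 2.50 and 5.57 CPM in woodrats 1, 2 and 3, against 2.98, 2.81 and 2.50 CPM in lab rats 1, 2 and 3. Woodrat 3 alone stood above the others, and without it the log2 fold change turned from 0.34 (FDR = 0.571, standard error 0.45) to -0.19. Tgfa (ENSMUSG00000029999.13), the gene of transforming growth factor alpha, had 1, 5 and 28 reads in woodrats 1, 2 and 3, against 19, 6 and 2 in lab rats 1, 2 and 3. Its values were spread widely in both species, from 0.195 to 3.32 CPM and from 0.385 to 2.36 CPM. The log2 fold change of Tgfa was 0.19 (FDR = 0.883, standard error 0.89), without woodrat 3 it was -1.43, and without lab rat 3 it was -0.19. Animals of 1 species thus differed more than the species did.

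Areg (ENSMUSG00000029378.5), which encodes amphiregulin, was close to the limit of detection. It had 7, 5 and 8 reads in woodrats 1, 2 and 3, or 1.37, 0.694 and 0.948 CPM. The lab rats had 1, 0 and 1 reads of it, which allows up to 0.691, 0.610 and 1.07 CPM at the upper end of exact 95% Poisson intervals. Summed over animals, 20 woodrat reads stood against 2 lab rat reads, a ratio of 9.29 after normalization, with an exact 95% interval from 2.26 to 82.0. These intervals cover counting error only, and not the spread between animals. Fitted without the filter, Areg had a log2 fold change of 3.04 (FDR = 0.0257, edgeR quasi-likelihood test), a value that depends on the prior count at so few reads.

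The 5 ligands in the files together had 58, 85 and 214 reads in woodrats 1, 2 and 3, against 145, 130 and 76 reads in lab rats 1, 2 and 3. Their summed level overlapped between the species, with 11.3, 11.8 and 25.4 CPM in woodrats 1, 2 and 3, against 18.0, 21.5 and 14.6 CPM in lab rats 1, 2 and 3. How these reads were divided among the ligands differed between the species. Hbegf took 15.5%, 34.1% and 21.5% of the ligand reads in woodrats 1, 2 and 3 but 54.5%, 78.5% and 73.7% in lab rats 1, 2 and 3. Btc took 50.0%, 32.9% and 39.7% in woodrats 1, 2 and 3, against 15.2%, 3.85% and 5.26% in lab rats 1, 2 and 3.

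Betacellulin reads therefore made up 40.9% ± 8.6 (SD, n = 3) of the ligand reads in woodrats, against 8.09% ± 6.17 (SD, n = 3) in lab rats, and heparin-binding EGF reads 23.7% ± 9.5 (SD, n = 3) and 68.9% ± 12.7 (SD, n = 3). Neither gene's share overlapped between the species. The exact (Clopper-Pearson) 95% intervals of single animals reached from 16.2% to 27.6% for Hbegf in woodrat 3, the animal with most ligand reads, and from 7.35% to 27.4% in woodrat 1, the one with fewest. The shares of Areg, at least 3.74% in woodrats and at most 1.32% in lab rats, and of Ereg, with means of 21.3% and 15.6%, also did not overlap, while those of Tgfa did. The shares of an animal sum to its whole, so a lower share of Hbegf by itself raises those of the other ligands. They are therefore not separate results, and the level of Ereg in CPM overlapped between the species. These are shares of reads rather than of molecules, since the genes differ in length, and they were computed after the counts had been seen and were not tested.

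**Figure D2:**
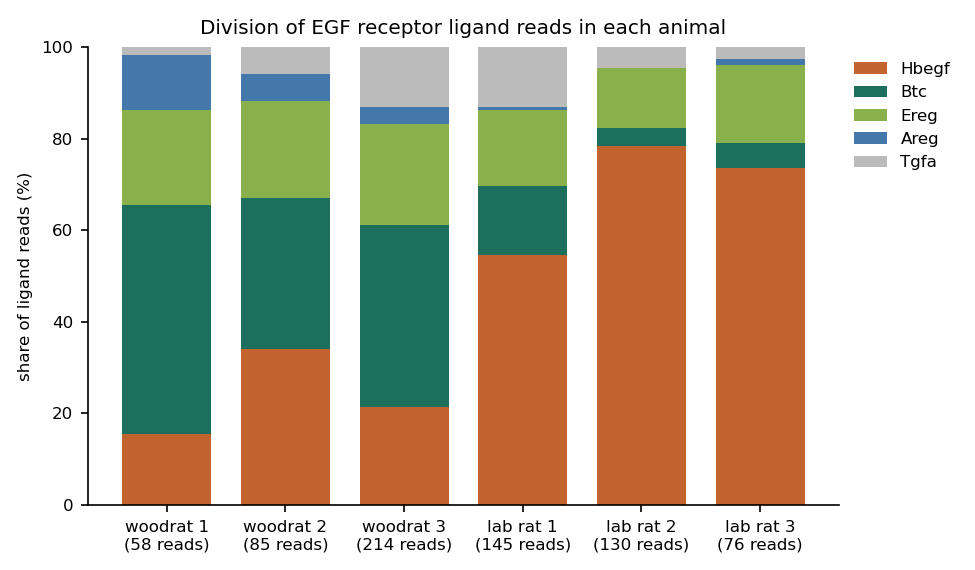
Share of the reads of 5 EGF receptor ligands (y axis, percent) that each ligand took in each animal, with the number of ligand reads under the bar. Hbegf made up at least 54.5% in every lab rat and at most 34.1% in any woodrat, and Btc at least 32.9% in every woodrat and at most 15.2% in any lab rat.

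Both inhibitors had positive log2 fold changes that did not pass the test. Lrig1 (ENSMUSG00000030029.13), a transmembrane protein that lowers receptor amounts and marks stem cells in several epithelia, had 52.9, 84.0 and 46.4 CPM in woodrats 1, 2 and 3, against 40.3, 38.9 and 25.2 CPM in lab rats 1, 2 and 3. All woodrats were above all lab rats, by a log2 fold change of 0.81 (FDR = 0.0660, standard error 0.31). Without woodrat 2 it was 0.47. Errfi1 (ENSMUSG00000028967.9), an intracellular inhibitor of the receptor kinase that is itself induced by EGFR signalling, had 13.3, 21.2 and 51.5 CPM in woodrats 1, 2 and 3, against 20.7, 15.2 and 7.32 CPM in lab rats 1, 2 and 3. The species overlapped, and the log2 fold change was 0.99 (FDR = 0.178, standard error 0.54), or 0.25 without woodrat 3.

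Relative to Egfr, neither inhibitor separated the species. There were 0.358, 0.622 and 1.06 Errfi1 reads per Egfr read in woodrats 1, 2 and 3, against 0.893, 0.713 and 0.475 in lab rats 1, 2 and 3. For Lrig1 the numbers were 1.43, 2.46 and 0.952 in woodrats 1, 2 and 3, against 1.74, 1.82 and 1.64 in lab rats 1, 2 and 3. The lab rats were thus alike in Lrig1 reads per Egfr read, whereas the woodrats lay on both sides of them. Relative to Erbb2, both inhibitors separated the species, with every woodrat above every lab rat. The mean log2 ratio to Erbb2 was higher in woodrats by 1.31 for Lrig1 and by 1.40 for Errfi1. These ratios were not tested.

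Across members, woodrat 3 had the highest woodrat value in 7 of 9 genes and woodrat 1 the lowest in 5. Lab rat 1 had the highest lab rat value in 7 of 9 and lab rat 3 the lowest in 6. Woodrat 3 was also the woodrat with the highest epithelial and the lowest smooth muscle level. Egfr did not follow this order as Erbb2 did: its level in woodrat 1 was above that in woodrat 2, while the Erbb2 level in woodrat 1 was the lowest of all 6 animals.

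The members were therefore also expressed per 1000 reads of the 12 epithelial genes. On this scale Egfr had 27.7, 10.2 and 5.94 reads in woodrats 1, 2 and 3, against 3.79, 3.73 and 3.12 in lab rats 1, 2 and 3, so that all woodrats stayed above all lab rats. Hbegf had 1.31, 1.20 and 0.664 in woodrats 1, 2 and 3, against 1.60, 2.95 and 2.18 in lab rats 1, 2 and 3, and here too every lab rat stayed above every woodrat. Btc, Areg, Ereg and Errfi1 were higher in every woodrat, and Erbb2, Tgfa and Lrig1 overlapped. In CPM, Ereg and Errfi1 overlapped and Lrig1 did not. Division by the low epithelial sum of woodrat 1 raises the value of every gene in that animal. The share of all tested genes that did not overlap on this scale was not computed.

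Scaling the fit to the sum of the epithelial genes raised the median log2 fold change of all tested genes by 1.05, and scaling to their median ratio by 1.66. The log2 fold change of Egfr became 2.03 (FDR = 0.0745) and 2.66 (FDR = 0.0370), and relative to the median of all genes 0.95 and 0.97. That of Hbegf became -1.11 (FDR = 0.365) and -0.58 (FDR = 0.630), and that of Btc 3.04 (FDR = 0.0122) and 3.65 (FDR = 0.00665). Erbb2 changed sign, to 0.30 (FDR = 0.815) and 0.85 (FDR = 0.483), because the scaling moved all genes. Relative to the median of all genes, Erbb2 stayed negative, at -0.44 with TMM factors and -0.77 and -0.84 with these scalings, and Hbegf was at -1.73, -2.19 and -2.28. With DESeq2's size factors or total counts, no member changed sign and none passed an FDR of 0.01.

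**Figure D3:**
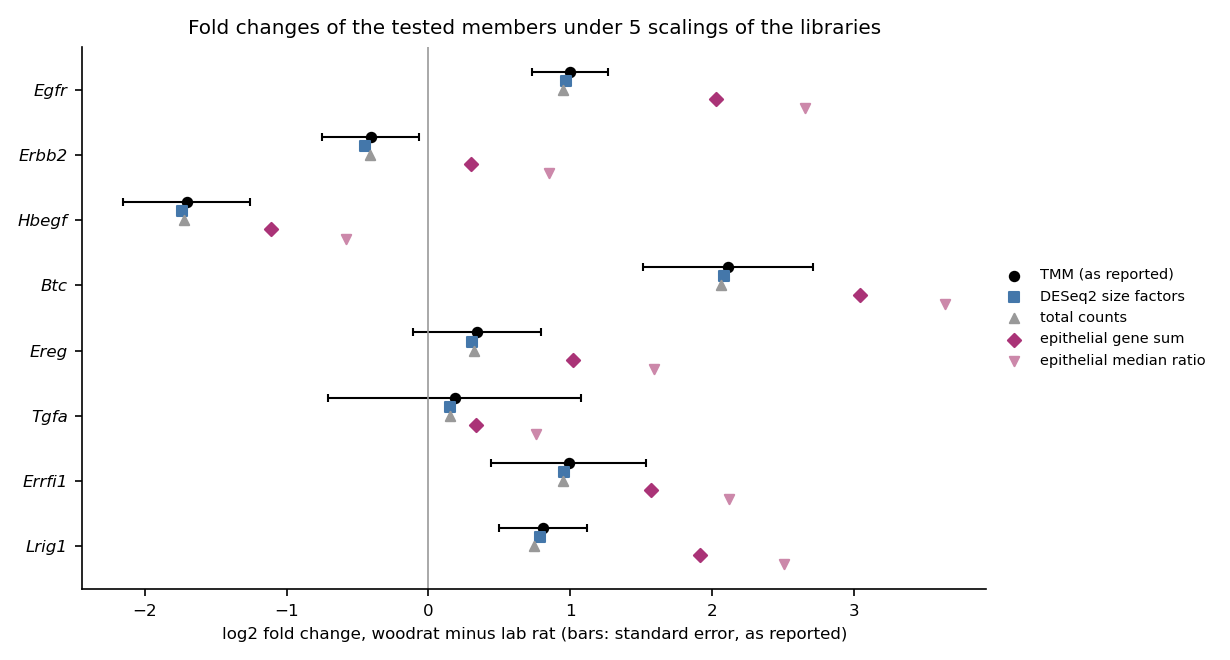
Log2 fold change of the 8 tested members (x axis, woodrat minus lab rat) with the libraries scaled in 5 ways, where bars give the standard error of the TMM fit. The 3 scalings over all genes lie together, and the 2 scalings to epithelial genes shift all members to the right, which turns Erbb2 from -0.41 to 0.30 and 0.85.

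**Figure D4:**
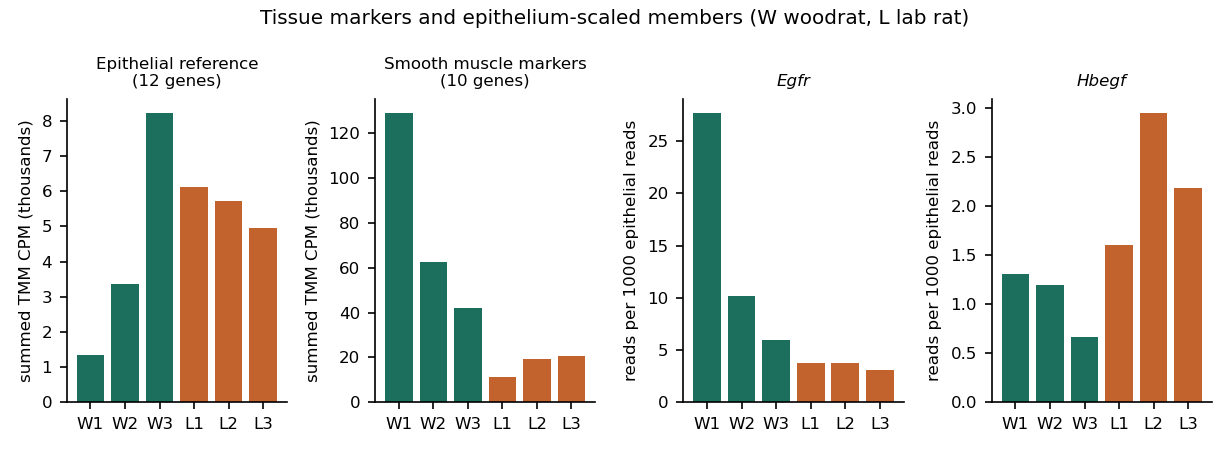
Summed TMM-normalized CPM of the epithelial and smooth muscle genes, and reads of Egfr and Hbegf per 1000 reads of the epithelial genes (y axes, from 0), in woodrats (W, green) and lab rats (L, orange). Woodrat 1 had the lowest epithelial sum (1341 CPM) and the highest smooth muscle sum (128650 CPM), and Egfr per epithelial read was higher in all woodrats than in any lab rat.

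The rest of the ErbB family was measured in 5 of 7 genes, and 2 of them, both neuregulins, were less abundant in woodrats at an FDR below 0.01 (0 of 5 were more abundant), compared with 9.71% of all tested genes more abundant in lab rats and 10.3% more abundant in woodrats. The neuregulins are ligands of ERBB3, of ERBB4 or of both, depending on the neuregulin, and reach ERBB2 through these partners. Nrg2 (ENSMUSG00000060275.10) had 1.56, 3.61 and 1.66 CPM in woodrats 1, 2 and 3, against 15.8, 11.4 and 16.2 CPM in lab rats 1, 2 and 3, a log2 fold change of -2.65 (FDR = 0.00237, standard error 0.42, edgeR quasi-likelihood test). Nrg4 (ENSMUSG00000032311.16) had 4.30, 7.49 and 9.71 CPM in woodrats 1, 2 and 3, against 22, 17.2 and 28.3 CPM in lab rats 1, 2 and 3, a log2 fold change of -1.63 (FDR = 0.00955, standard error 0.37). In both genes the species did not overlap.

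Nrg1 had a fold change in the opposite direction, with 2.93, 13.9 and 1.90 CPM in woodrats 1, 2 and 3 and at most 1.32 CPM in any lab rat (log2 fold change 3.08, standard error 0.91, FDR = 0.0264). Woodrat 2 carried most of its reads. Erbb3, a receptor for some of the neuregulins that signals through ERBB2, had 2.15, 5.27 and 26.4 CPM in woodrats 1, 2 and 3. In lab rats Erbb3 had between 14.4 and 33 CPM (log2 fold change -1.16, FDR = 0.252), and woodrat 1 was again the lowest of the woodrats. Egf itself did not pass the test (log2 fold change -0.74, FDR = 0.194). Erbb4 and Nrg3 fell below the filter, with at most 8 reads in any animal. The count of calls in these 5 genes changed when single animals were left out. It was 4 without woodrat 3, 1 without woodrat 1, woodrat 2 or lab rat 2, and 0 without lab rat 1 or lab rat 3. Of all tested genes, 14.9%, 7.13% and 20.8% were called without woodrats 1, 2 and 3. Without lab rats 1, 2 and 3 these shares were 7.43%, 8.33% and 10.4%, against 20% with all animals.

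Of 10 tested genes of ligand release, 3 were differentially abundant (1 higher in woodrats, 2 higher in lab rats), against 20% of all tested genes, with a median log2 fold change of 0.14. Adam19, a metalloprotease of the family that sheds such ligands, had 16.4 ± 7.5 CPM (SD, n = 3) in woodrats, against 3.63 ± 1.92 CPM (SD, n = 3) in lab rats (log2 fold change 2.16, FDR = 0.00883). Rhbdf1 (iRhom1), a partner of ADAM17 on its way to the cell surface, was lower in woodrats, with 41.4 ± 5.4 CPM against 89.8 ± 14.1 CPM (log2 fold change -1.11, FDR = 0.00708). Cnih4, of the cornichon family of cargo receptors, was also lower in woodrats (log2 fold change -1.32, FDR = 0.00773). Adam17, the principal protease for most EGFR ligands, did not pass the test (log2 fold change -0.66, FDR = 0.345). Adam10 did not pass it either, though every woodrat was above every lab rat (log2 fold change 1.38, FDR = 0.0283). Both genes were looked up after the calls were known. No call was left without any 1 of woodrat 1, woodrat 2 or the 3 lab rats, and 2 were made without woodrat 3. The shares of all tested genes called in these fits are those given above for the ErbB family.

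Among 35 genes that carry the signal from the receptor, 4 were differentially abundant and all 4 were more abundant in woodrats. The median log2 fold change was 0.18, with 21 genes positive and 14 negative. With DESeq2's size factors the split of the calls was 3 toward woodrats and 1 toward lab rats, where 20% of all tested genes were called. At an FDR below 0.05 the split was 10 and 2, where 39.9% of all tested genes were called. In the reported fit the list's share of calls was 11.4%. These 11.4% lay below the 20% of all tested genes called in either direction. Calls toward woodrats alone made up 10.3% of all tested genes, close to the share in this list, and calls toward lab rats 9.71%. Those described here are the kinase Braf, which RAS activates, the scaffold Ksr1, which assembles kinases of the ERK cascade, and Sos2, which loads RAS with GTP. Braf had 8.90 ± 1.04 CPM (SD, n = 3) in woodrats, against 2.86 ± 0.98 CPM (SD, n = 3) in lab rats (log2 fold change 1.62, FDR = 0.00969). The log2 fold changes of Ksr1 and Sos2 were 2.01 (FDR = 0.00444) and 1.98 (FDR = 0.00343). With total counts in place of TMM factors 0 of these calls were left, where 14.4% of all tested genes were called. The count was 0 without woodrat 2, lab rat 1 or lab rat 2, 2 without woodrat 1 or lab rat 3, and 6 without woodrat 3. The shares of all tested genes in the fits without 1 animal are given above.

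Of 33 tested genes that attenuate the receptor or its pathway, 4 (12.1%) were differentially abundant (1 higher in woodrats, 3 higher in lab rats), against 20% of all tested genes, and the median log2 fold change was 0.25. Nf1, which switches RAS off, was higher in woodrats (27.5 ± 4.5 CPM against 4.86 ± 3.25 CPM, SD, n = 3, log2 fold change 2.48, FDR = 0.00689). The ubiquitin ligase Cblc, which acts on active EGFR, was higher in lab rats (128 ± 48 CPM against 31.7 ± 14.4 CPM, log2 fold change -2.0, FDR = 0.00713), as was the CBL partner Sh3kbp1 (log2 fold change -2.0, FDR = 0.00537). The phosphatase gene Ubash3b was at most 0.829 CPM in woodrats and at least 2.50 CPM in lab rats (log2 fold change -3.06, FDR = 0.00464). Ubash3b passed the filter through the lab rats alone, so its separation of the species is not independent of its being tested. With total counts there was 1 call, where 14.4% of all tested genes were called. Without woodrat 2, lab rat 1 or lab rat 2 there were 0 calls, and without woodrat 3 or lab rat 3 there were 2, beside the shares of all tested genes given above.

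Of 33 tested genes known to be induced by ERK signalling, 3 (9.09%) were differentially abundant, against 20% of all tested genes, and the median log2 fold change was -0.10, with 16 genes positive and 17 negative. The transcription factor gene Fosb had 15, 15 and 23 reads in woodrats 1, 2 and 3, against 1, 1 and 0 reads in lab rats 1, 2 and 3 (FDR = 0.00199). The ratio over the summed reads was 24.6 after normalization, with an exact 95% interval for counting error from 6.49 to 209. Fosb passed the filter through the woodrats alone, so its separation of the species is not independent of its being tested. Maff, a small MAF transcription factor, was also higher in woodrats, with 8.30 ± 2.53 CPM against 1.27 ± 0.23 CPM (SD, n = 3, log2 fold change 2.69, FDR = 0.00222). Phlda1 was lower in woodrats, with 3.13 ± 0.42 CPM against 12.6 ± 0.5 CPM (log2 fold change -2.01, FDR = 0.00211). The count was 0 without lab rat 1, 1 without lab rat 2 and 7 without woodrat 3, beside the shares of all tested genes given above.

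**Figure D5:**
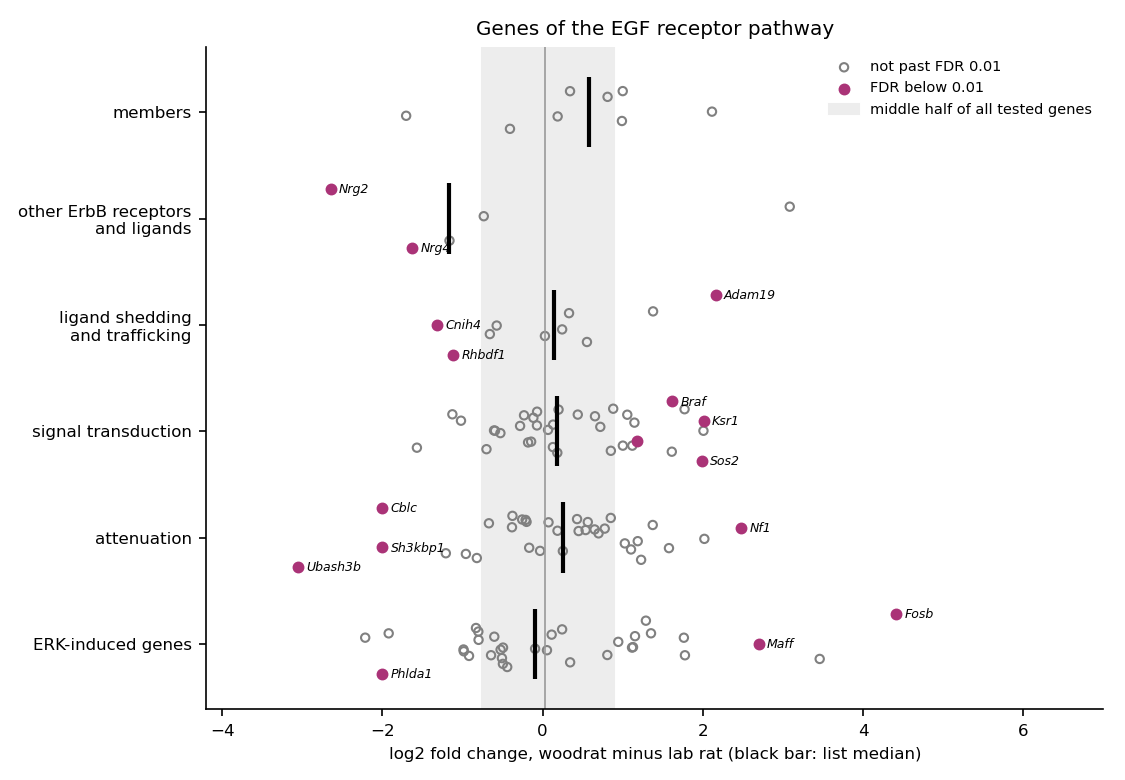
Log2 fold change (x axis, woodrat minus lab rat) of each tested gene of the EGF receptor system and of 5 pathway lists, with genes at an FDR below 0.01 filled and those described in the text named, list medians as black bars, and the range between the quartiles of all tested genes shaded. None of the 8 members was filled, and both filled genes of the ErbB list, Nrg2 and Nrg4, lay toward lab rats.

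The tested genes whose log2 CPM followed that of Egfr most closely over the 6 animals were Unc13b, Wnk1, Stk4, Adamts9 and Slc25a46, with Pearson's r between 0.996 and 0.998. These values describe 6 animals in 2 species, share the libraries and their scaling with Egfr, and include the difference between the species. All 5 had a higher mean in woodrats, by log2 fold changes from 1.14 for Slc25a46 to 2.71 for Wnk1.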

How the data were processed

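Foregut RNA of 3 woodrats and 3 lab rats was sequenced, and species and replicate numbers were taken from the labels. The authors trimmed read pairs (Trimmomatic), merged overlapping ones (FLASH), aligned them with cross_match to mouse coding transcripts (GENCODE M7), removed a list of genes with many multiple alignments, and deposited raw counts of uniquely assigned, correctly stranded reads per mouse gene. Tool versions are not given in the sources used here. The count tables carry no coordinates or lengths and no sequence was used, so the level of a gene is compared between animals. Read ratios and ligand shares relate genes within an animal without correction for length, and are likewise compared between animals.

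In R 4.3.3, a gene was tested when 3 or more animals reached 1 CPM, and species were compared across all genes with edgeR 4.0.16 (TMM factors, quasi-likelihood F-test of the kind used before version 4, prior count 0.125, Benjamini-Hochberg adjustment, FDR below 0.01). The standard error is the log2 fold change divided by the square root of F. The procedure was tested on simulated data. Correlation used log2(CPM + 0.5). Replicates of a species differed by more than sampling noise (chi-square per degree of freedom from 10.1 to 121).

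Members and pathway lists were chosen with earlier results of these data known. Named genes are the members, the ErbB family, the genes called in each other list, and the 5 genes most like Egfr, except 1 called gene that is not reported here. Adam17, Adam10 and single marker genes were named after their values were seen. Ligand shares, read ratios and counts per epithelial read were added after the counts were seen. The effect of sequence divergence from mouse on the count of a gene was not tested. All libraries shared a lane, and no preparation batch is named. Alternatives were a 5 CPM filter, no filter, DESeq2 1.42.0 and its size factors, total counts, scaling to epithelial genes (a variant by their median ratio was chosen after seeing the data), the edgeR 4 quasi-likelihood method, a replicate block, an FDR of 0.05, and leaving out each animal.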

Additional observations from a re-analysis of the deposited data

How the results depend on the processing

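Of the 8 tested members, 0 were called in the reported fit, in each of the 6 fits that left out 1 animal (range 0 to 0), with total counts, DESeq2's size factors, the sum of epithelial genes, the edgeR 4 method or the replicate block. None was called among the 5 members left by the 5 CPM filter, which removed Btc, Ereg and Tgfa, or among the 9 without a filter. DESeq2 called 3, an FDR below 0.05 called 3, and the median ratio of epithelial genes called 1 (Btc). The sign of a member changed for Erbb2 with the 2 epithelial scalings (0.30 and 0.85, but -0.77 and -0.84 relative to the median of all genes, which these scalings moved), for Ereg without woodrat 3 (range without 1 animal -0.19 to 0.545), and for Tgfa without woodrat 3 (-1.43, the range without 1 animal reaching 1.06), without lab rat 3 (-0.19) and with the replicate block (-0.11). The cause of the changes in Ereg and Tgfa was not tested.

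Over all genes, 2516 calls became 3916 in DESeq2, 1435 and 1601 with the sum and the median ratio of epithelial genes, 5026 at an FDR below 0.05, 716 with the replicate block, and 898 to 2626 without 1 animal. The epithelial scalings turned the split of calls, with 1203 toward woodrats and 232 toward lab rats for the sum and 1476 and 125 for the median ratio, against 1292 and 1224. Calls among the other ErbB genes (2) became 1 with the 5 CPM filter, 1 with total counts, 1 with the epithelial sum (Nrg1), 0 with the replicate block and 0 to 4 without 1 animal. Those of ligand release (3) became 1 with the epithelial sum, 0 with the replicate block and 0 to 2 without 1 animal. Those of signal transduction (4) became 10 in DESeq2, 2 with the epithelial sum, 12 at an FDR below 0.05, 1 with the replicate block, 0 with total counts and 0 to 6 without 1 animal. Those of attenuation (4) became 10, 1, 13, 1, 1 and 0 to 3 in the same order. Those of ERK-induced genes (3) became 9 in DESeq2, 11 at an FDR below 0.05, 5 without a filter, 0 with the replicate block and 0 to 7 without 1 animal.

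The reported fit did not pair the animals by replicate number. Deviations from the species means correlated, for animals of 1 number, at -0.301, -0.094 and -0.291. Their mean was -0.229, against 0.111 for animals of different numbers. Deviations from the mean of so few animals depend on each other, so these correlations cannot decide whether a number marks a pair. Labels do not say that a number marks a shared batch. Fits without 1 animal leave 2 against 3. Low read numbers limit Areg, Tgfa and Btc in lab rats.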
